A study of Mus musculus with 6 samples.

Results

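The genes described here are the nuclear-encoded members of the 5 complexes of mitochondrial oxidative phosphorylation, taken from an RNA sequencing table of mouse liver. They are the rows whose gene symbol starts with Nduf (complex I), Sdh (complex II), Uqcr (complex III), Cox4, Cox5, Cox6, Cox7 or Cox8 (complex IV) or Atp5 (complex V). Of 102 such rows, 2 with names ending in -ps were left out and 9 had a mean under 1 FPKM over the 6 libraries, which left 91 of the 19613 rows of the table: 47 for complex I, 7 for complex II, 8 for complex III, 11 for complex IV and 18 for complex V. FPKM is the number of fragments per kilobase of gene and of library depth. The mean level chose the members, so the levels below are a description. Just inside the minimum lay Sdhaf1 at a mean of 1.19 deposited FPKM and Ndufb2 at 1.31, and just outside it lay Sdhaf3 at 0.775 and Cox7a1 at 0.504.

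In oxidative phosphorylation, complexes I and II pass electrons from NADH and succinate to ubiquinone, complex III hands them on to cytochrome c, and complex IV gives them to oxygen. Complexes I, III and IV pump protons across the inner mitochondrial membrane, and complex V, the ATP synthase, uses the gradient to make ATP. Most subunits are encoded in the nucleus and imported, while some subunits of complexes I, III, IV and V are encoded in mitochondrial DNA (mtDNA). Each of these 4 complexes therefore needs products of both genomes. Hepatocytes are rich in mitochondria and rely on them for fatty acid oxidation, glucose production and the urea cycle.

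The mice were knockout (KO) or wild-type (WT), and each had been injected intraperitoneally with lipopolysaccharide (LPS), a bacterial endotoxin, at 15 mg/kg, with livers taken after 6 h. There were 3 libraries of whole liver per genotype, and age, sex and strain are not stated in the labels. No liver without LPS was measured, so the comparison is of the 2 genotypes under endotoxin. Whether each library stands for its own animal is not stated, so the p-values cover only variation between libraries, which may be technical. In whole tissue, fewer cells of a type and less RNA per cell cannot be told apart.

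Whole reads recovered from the FPKM values were 34804393, 35297180 and 44681517 in KO 1 to 3. In WT 1 to 3 they were 28644199, 34546938 and 26302330. The depth by which the deposited values were divided, implied by these reads and gene lengths, was 35400140, 29039160 and 34309950 in KO. In WT it was 37973281, 45428819 and 26864710. This depth was below the reads recovered in KO 2 and KO 3 and well above them in WT 1 and WT 2. Why depth and reads differed was not tested. Factors that put the libraries on a common scale (the median over genes of each library's ratio to the geometric mean) ran from 0.997 to 1.40 in the KO libraries and from 0.738 to 0.994 in the WT libraries, so all levels below are FPKM divided by these factors ("scaled FPKM") unless the deposited values are named. The 6 libraries also differed in mtDNA-encoded RNA, which made up 18.2%, 30.2% and 20.1% of all FPKM in KO 1 to 3 and 17.8%, 31.0% and 26.9% in WT 1 to 3. All 10 hepatocyte markers on the list used, among them Alb and Ttr, passed the filter on low values, and their summed level lay between 33680 and 41083 scaled FPKM in the KO and between 37136 and 45087 in the WT libraries. For skeletal muscle, 6 of 10 markers had a row, their sum reached at most 1.07 scaled FPKM, and none passed the filter.

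The members spanned 1.09 to 297 scaled FPKM. Complex IV had the highest median level (154 scaled FPKM over 11 members), followed by complex III (109 over 8), complex V (47.5 over 18), complex II (36.1 over 7) and complex I (28.9 over 47). Cox6a1, a complex IV subunit of the form found outside muscle, was the most abundant member at 339, 262 and 280 scaled FPKM in KO 1 to 3 and 295, 318 and 287 in WT 1 to 3. Within complex I the highest was Ndufa4, a subunit first assigned to complex I and now placed in complex IV, at 186, 162 and 149 in KO and 180, 184 and 155 in WT. The groups overlapped for both genes.

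**Figure D1:**
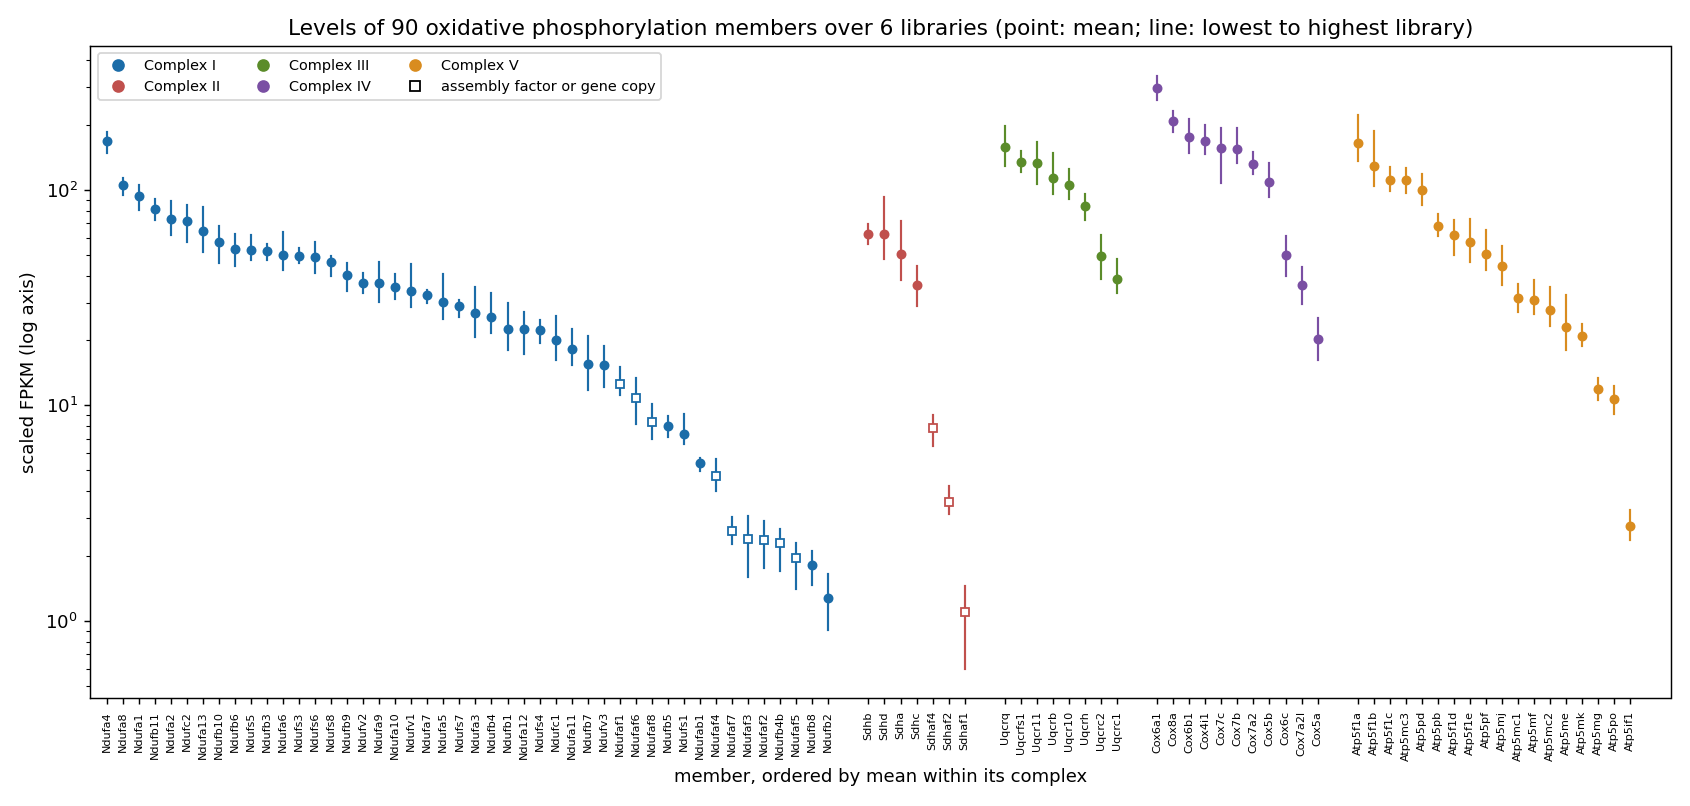
Mean scaled FPKM of 90 members on a log axis, grouped by complex; lines run from the lowest to the highest of the 6 libraries and open squares are assembly factors or a gene copy. Complex III and IV members lie between 20.3 and 297 scaled FPKM, and the assembly factors of complexes I and II lie between 1.09 and 12.5.

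The levels depended on the length used to compute FPKM. For all 85 members found in GENCODE M21, the length implied by the deposited values equalled the bases covered by all annotated exons of the gene, within 0.5 bp. In 4 members a whole-number factor of the reads had been set from that same length, so their match was not independent. FPKM was thus computed on all annotated exons. Small subunits with one short main transcript and several long annotated variants were therefore divided by a length far above that of the main transcript. Levels on the principal transcript credit all reads of a gene to that transcript, so reads from other variants can make them too high. Ndufb2, an accessory subunit of complex I, had 5628 bp of exons and a principal transcript of 455 bp. Its level was 1.27 scaled FPKM on the first length and 15.7 on the second. Atp5mg, a membrane subunit of the ATP synthase, went from 11.9 to 140, and Cox6c, a complex IV subunit, from 49.6 to 352. Computed on the principal transcript, the lowest and highest complex IV members differed by 7.31-fold, against 14.6-fold on all exons, and the range narrowed from 4.08-fold to 2.89-fold in complex III. It was 133-fold and 130-fold in complex I and 60.1-fold and 45.9-fold in complex V, and in complex II it widened from 57.1-fold to 112-fold. These ranges of complexes I and II include assembly factors, described below, and in complex I a gene copy. Without those rows the range was 133-fold and 45.6-fold in complex I and 1.73-fold and 3.30-fold in complex II. Ndufa4, now placed in complex IV, set the top of the complex I range on both lengths. The next highest was Ndufa8 at 106 scaled FPKM on all exons, and Ndufa6 at 152 on the principal transcript. The medians on the principal transcript were 203 in complex IV, 164 in complex III, 161 in complex V (14 members), 53.0 in complex I (45 members) and 37.0 in complex II. Complex V thus stood near complex III on this scale, and over all members the order of complexes I and II was exchanged. The highest member also changed, with Ndufa4 at 383 and Cox6a1 at 365 on the principal transcript. Without the assembly factors and the gene copy, complex II stayed above complex I. Their medians were then 56.2 and 36.1 on all exons, and 66.8 and 58.3 on the principal transcript.

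The 11 assembly factors, which help build complexes I and II and are not part of the finished enzymes, were the low end of the set, with a median of 3.55 scaled FPKM and a highest value of 12.5 for Ndufaf1. On the principal transcript their median was 8.58 and their highest value 12.95. Among the subunits, Ndufb8 stayed low on both scales, at 1.82 and 8.40 scaled FPKM. In GENCODE M21 its exons share 4.26% of their bases with a gene on the same strand. In all, 32 of the 85 matched members share exonic bases with another gene, 4 of them on the same strand. The authors' handling of reads that match several genes is not known from the sources used here.

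The isoforms of complex IV that are used outside muscle and other specialised tissues carried nearly all reads. Cox8b, the heart and muscle form of subunit 8, had 0 reads in all 6 libraries, while Cox8a had 233, 193 and 186 scaled FPKM in KO and 205, 224 and 207 in WT. Cox4i2, the lung-enriched form of subunit 4, had 0 to 5 reads per library, against 147 to 200 scaled FPKM for Cox4i1. Cox6a2, the muscle form of subunit 6a, had 0 to 6 reads, the testis form Cox6b2 had 0 to 19, and Cox7a1, another muscle form, had 5 to 18. Ndufa4l2, a paralogue of Ndufa4 known as a hypoxia-induced gene, had 2 to 38 reads. These reads are too few to compare the genotypes.

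The membrane ring of the ATP synthase is built from a c subunit whose identical mature protein comes from 3 genes. Atp5mc3 was the highest of them at 127, 96.4 and 112 scaled FPKM in KO and 124, 105 and 101 in WT. Atp5mc1 followed at a mean of 31.6 and Atp5mc2 at 27.8. This order of the lower pair changed with the length, since on the principal transcript Atp5mc2 stood at 106 and Atp5mc1 at 33.0. The principal transcript used was 4715 bp long for Atp5mc1, against 441 bp for Atp5mc2 and 714 bp for Atp5mc3. The order of the pair on this scale therefore rests on the long transcript taken for Atp5mc1. Atp5mc3 was first on both scales.

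Promoters of these genes are known for sites of NRF1, of ETS factors such as GABP and of YY1, which are regulators of nuclear genes for mitochondrial proteins. RefSeq promoter windows (GRCm38.p6, 250 bases before to 50 after each start) were available for 76 members and were searched on both strands for GCGCA and GCGC separated by any 1 base (NRF1), CCGGAAG (ETS) and AAGATGGC (YY1). The NRF1 letters were found in 20 of 76 members (26.3%), against 5.19% of 27025 genes in the promoter table and 7.17% of its protein-coding genes. The ETS letters were found in 20 members (26.3%, against 9.93% and 12.9%) and the YY1 letters in 11 (14.5%, against 3.19% and 3.57%). In all, 44 members held at least 1 of the 3 motifs, 7 held more than 1, and matches of different motifs overlapped in 0 members. By complex the NRF1 letters were present in 9 of 42 windows for complex I, 3 of 6 for complex II, 1 of 5 for complex III, 1 of 9 for complex IV and 6 of 14 for complex V. A match is a description of the letters and not evidence of binding. Not every member was eligible for display, so Atp5pd need not be the most abundant complex V member with a match. For complexes I, II, IV and V, 1 abundant member with an NRF1 match lying wholly upstream of the start is shown. Each window has 40 bases on the gene's strand, with the match in capitals.
Ndufa8, chr2:36049344-36049383, minus strand: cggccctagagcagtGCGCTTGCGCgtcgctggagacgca
Sdhd, chr9:50603904-50603943, minus strand: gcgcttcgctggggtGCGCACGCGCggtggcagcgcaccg
Cox6a1, chr5:115349051-115349090, minus strand: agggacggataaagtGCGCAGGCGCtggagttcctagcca
Atp5pd, chr11:115420036-115420075, minus strand: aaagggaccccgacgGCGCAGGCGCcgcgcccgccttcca
The match begins 30 bases upstream of the start in Ndufa8, 79 in Sdhd, 117 in Cox6a1 and 141 in Atp5pd. These are a complex I accessory subunit, a membrane anchor of succinate dehydrogenase, the most abundant complex IV subunit and a subunit of the ATP synthase stalk.

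No member passed the test between KO and WT. With limma on log2(scaled FPKM + 1) and Benjamini-Hochberg adjustment over 9218 genes, 104 genes (1.13%) were called at an adjusted p under 0.05, 48 higher (0.521%) and 56 lower (0.608%) in KO, and 0 of the 91 members were among them. At an unadjusted p under 0.05 the count was also 0 of 91 members, against 1275 of 9218 genes (13.8%). The lowest adjusted p among the members was 0.367. The differences were small: fold changes ran from -0.26 (Ndufaf3) to 0.32 (Sdhaf1) on the log2 scale with a median standard error of 0.15, and the 95% intervals reached at most from -0.70 (Sdhd) to 0.65 (Sdhaf1). An interval of this width does not show that the genotypes were alike.

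The direction was the same for most members, with a median fold change of -0.07 that was smaller in size than the median standard error of 0.15. Some members exceeded their own standard error, among them Ndufaf3 at -0.26 ± 0.14 (SE) and Sdhaf1 at 0.32 ± 0.14 (SE). In 75 of 91 members the log2 fold change was below 0, against 48.9% of all tested genes, and the median was -0.07 for the members and 0.01 for all tested genes. By complex the median was -0.07 in complex I, -0.01 in complex II, -0.12 in complex III, -0.13 in complex IV and -0.06 in complex V. The count below 0 was 75 of 91 also with upper quartile scaling, 50 with quantile normalisation (median -0.02) and 44 with TPM (median 0.01), where all genes had a median of 0.09. Relative to the median of all tested genes, the members' median was -0.08 with median-of-ratios factors, upper quartile scaling and TPM, and -0.04 with quantile normalisation. The TPM counts given for single complexes below contain the shift of all genes. Without KO 1 the members' median was -0.16, and without WT 2 it was -0.03. Genes of one complex are measured in the same libraries and are not independent. Levels of hepatocyte markers moved the same way, with 9 of 10 below 0 and a median of -0.22, none of them called, and their part in the members' direction was not tested.

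**Figure D2:**
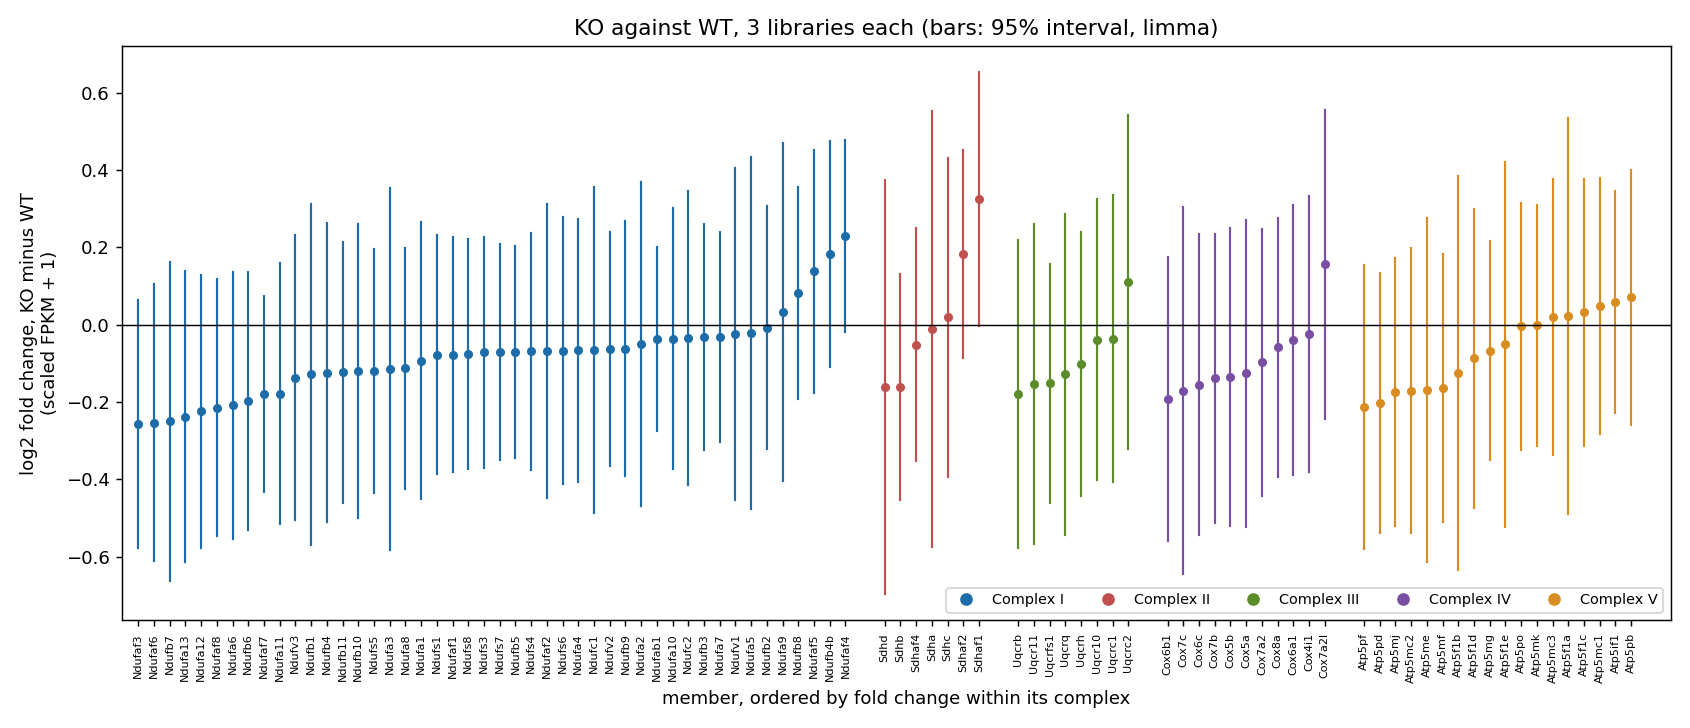
Log2 fold change of 90 members, KO minus WT, on log2(scaled FPKM + 1), with 95% intervals from limma (3 libraries per group). Points lie between -0.26 and 0.32, and all 90 intervals cross 0.

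In the deposited FPKM without scaling, 12 members were called higher in KO: Sdhaf1, Cox7a2l, Uqcrc2, Ndufaf4, Atp5pb, Sdhaf2, Atp5mc1, Atp5f1c, Ndufb4b, Ndufa9, Atp5mc3 and Atp5f1a. This is 12 of 91, beside 28.7% of all tested genes called higher in the same values, and 0 members were called lower, beside 0.597% of all genes. All 91 members were above 0 there, with a median of 0.44, and the median of all tested genes was 0.45. Relative to that shift of all genes the members did not stand higher, and after scaling none of the 12 was called. The part of the depths behind the deposited values in that shift was not tested.

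In complex I, 42 of 47 members were below 0 after median-of-ratios scaling, against 27 with quantile normalisation and 22 with TPM. Relative to all tested genes the median of complex I was -0.08 with median-of-ratios factors and with TPM, and -0.05 with quantile normalisation. The core subunits encoded in the nucleus carry the NADH-binding flavin site and the iron-sulfur clusters. Ndufv1, the subunit that binds NADH, was at 37.0, 29.3 and 34.2 scaled FPKM in KO and 45.0, 28.7 and 30.1 in WT, a fold change of -0.02 ± 0.19 (SE). WT 1 was its highest library and the groups overlapped. Ndufs1, Ndufs3, Ndufs7, Ndufs8 and Ndufv2 had fold changes of -0.08 to -0.06. Of the 31 accessory subunits, which surround the core and stabilise it, 29 were below 0, against 18 with quantile normalisation and 15 with TPM, while their median relative to all genes was -0.08, -0.05 and -0.08. Ndufa8 was at 114, 96.5 and 95.01 scaled FPKM in KO and 113, 104 and 112 in WT, and Ndufa1 at 103, 87.7 and 80.6 in KO and 82.5, 105 and 102 in WT.

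A lack of overlap between the groups was found in 1 member in each direction. Ndufa6, an accessory subunit named because of this pattern after its values were seen, was at 48.0, 47.9 and 42.2 scaled FPKM in KO and 48.2, 64.1 and 49.0 in WT. The gap was 0.2 at its narrowest, the fold change was -0.21 ± 0.15 (SE) and the adjusted p was 0.599 with limma. All KO libraries lay below all WT libraries in 9.06% of all tested genes, against 1 of 91 members. Ndufaf4, an assembly factor that works early in building complex I, was at 4.89, 4.91 and 5.65 in KO and 4.19, 3.99 and 4.57 in WT. Its fold change was 0.23 ± 0.11 (SE) with an adjusted p of 0.399, and all KO libraries lay above all WT libraries in 10.7% of all tested genes. Both shares of members were below those of all genes.

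The other assembly factors of complex I included the most negative fold changes of the set. Ndufaf3 was at 2.15, 1.60 and 2.59 scaled FPKM in KO and 2.44, 3.06 and 2.60 in WT, a fold change of -0.26 ± 0.14 (SE). Ndufaf6 was at 12.0, 8.17 and 9.18 in KO and 13.4, 10.9 and 11.1 in WT, a fold change of -0.25 ± 0.16 (SE). KO 1 lay among the WT libraries of Ndufaf6, and KO 3 among those of Ndufaf3, and the adjusted p-values from limma were 0.530 and 0.464. Ndufb4b, a copy of the accessory subunit gene Ndufb4, had a fold change of 0.18 ± 0.13 (SE) from 25 to 53 reads per library, and reads that also match Ndufb4 make its value uncertain.

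Complex II, or succinate dehydrogenase, is the only one of the 5 with no mtDNA-encoded subunit, and it also works in the tricarboxylic acid (TCA) cycle. Sdha, which carries the flavin and oxidises succinate, was at 56.0, 38.4 and 53.6 scaled FPKM in KO and 71.8, 38.0 and 43.1 in WT. Sdhd, a membrane anchor, was at 65.1, 48.0 and 60.1 in KO and 92.8, 57.8 and 49.3 in WT. In both genes WT 1 stood above the other 5 libraries, and the standard errors of the fold changes, 0.25 for Sdha and 0.24 for Sdhd, were the largest of the set. The means were 49.3 ± 9.53 (SD, n = 3) in KO and 51.0 ± 18.2 in WT for Sdha, a fold change of -0.01. Sdhb, the iron-sulfur subunit, was steadier at 63.8, 57.0 and 55.8 in KO and 69.8, 66.2 and 61.9 in WT, a fold change of -0.16 ± 0.13 (SE). Sdhc, the other anchor, had means of 36.5 ± 7.75 in KO and 35.7 ± 5.17 in WT.

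Sdhaf1, which helps insert the iron-sulfur clusters of Sdhb, had the largest fold change and the lowest p of all members. It was at 1.08, 1.43 and 1.45 scaled FPKM in KO and 1.22, 0.599 and 0.782 in WT, so that WT 1 lay within the KO range. The fold change was 0.32 ± 0.14 (SE) with a 95% interval from -0.00 to 0.65 and an adjusted p of 0.367 with limma. It rested on 50 to 174 reads per library, and 69.6% of its exonic bases in GENCODE M21 overlap the gene E130208F15Rik on the other strand. Since the strand setting of the authors' counting is not given, reads of the 2 genes cannot be told apart. Sdhaf2, which attaches the flavin to Sdha, was at 4.12, 3.22 and 4.21 in KO and 3.12, 3.21 and 3.44 in WT, a fold change of 0.18 ± 0.12 (SE).

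In complex III, 7 of 8 members were below 0, and 5 of 8 with quantile normalisation or TPM. The median relative to all genes was -0.12 with median-of-ratios factors, -0.05 with quantile normalisation and -0.11 with TPM. Uqcrfs1, the Rieske iron-sulfur protein, was at 134, 129 and 121 scaled FPKM in KO and 152, 146 and 129 in WT, with a fold change of -0.15 ± 0.14 (SE) and the lowest adjusted p of the complex, 0.690. Uqcrb, a small subunit near the ubiquinone site, was the most negative at -0.18 ± 0.18 (SE), from 111, 111 and 95.3 in KO and 98.3, 148 and 118 in WT. WT 2 was the highest library for Uqcrb. The same library was the lowest for Uqcrc2, a core subunit, which was at 55.0, 44.4 and 52.6 in KO and 61.7, 38.7 and 42.6 in WT and had the one positive fold change, 0.11 ± 0.19 (SE). Uqcrq and Uqcr11, small subunits and with Uqcrfs1 the most abundant of the complex, had fold changes of -0.13 and -0.15.

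In complex IV all 10 subunits were below 0, between -0.19 (Cox6b1) and -0.02 (Cox4i1), and Cox7a2l was above 0; with quantile normalisation or TPM, 7 of the 10 were below 0. The median of the 10 relative to all genes was -0.14 with median-of-ratios factors, -0.05 with quantile normalisation and -0.13 with TPM. Cox6b1, which faces the intermembrane space where cytochrome c docks, was at 193, 149 and 153 scaled FPKM in KO and 174, 213 and 179 in WT, a fold change of -0.19 ± 0.16 (SE) with an adjusted p of 0.664. Cox7c, a small membrane subunit, was at 170, 166 and 108 in KO and 148, 194 and 151 in WT, so KO 3 stood below the other 5 libraries. Cox7a2l, which links complexes III and IV into supercomplexes, was at 41.5, 34.1 and 38.7 in KO and 43.9, 29.4 and 30.4 in WT. Its fold change was 0.16 ± 0.18 (SE), with the highest and the lowest library both in WT. Cox6a1, Cox8a and Cox7a2 had fold changes of -0.04, -0.06 and -0.10.

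In complex V, 12 of 18 members were below 0, and 8 of 18 with quantile normalisation or TPM. The median relative to all genes was -0.07 with median-of-ratios factors, -0.01 with quantile normalisation and -0.06 with TPM. The catalytic head showed the widest spread within WT. Atp5f1a (subunit alpha) was at 193, 136 and 168 scaled FPKM in KO and 223, 135 and 139 in WT, and Atp5f1b (subunit beta) at 132, 104 and 128 in KO and 188, 109 and 112 in WT. Both were highest in WT 1, and their fold changes were 0.02 ± 0.23 (SE) and -0.13 ± 0.22 (SE). Atp5f1c (subunit gamma, the rotating shaft) differed less between libraries, with means of 113 ± 14.5 in KO and 110 ± 10.6 in WT. The most negative were the stalk subunits Atp5pf, at 50.8, 46.4 and 42.5 in KO and 45.6, 65.3 and 52.8 in WT, and Atp5pd, at 103, 91.1 and 85.5 in KO and 94.5, 118 and 110 in WT. Their fold changes were -0.21 ± 0.16 (SE) and -0.20 ± 0.15 (SE). All 5 small membrane subunits were below 0, down to -0.17 for Atp5mj, against 4 with quantile normalisation and 3 with TPM, while their median relative to all genes was -0.17, -0.10 and -0.17. Atp5if1, the inhibitor that stops the enzyme from running backwards, was at 2.99, 2.92 and 2.56 in KO and 2.43, 3.27 and 2.37 in WT, a fold change of 0.06 ± 0.13 (SE). Atp5pb, another stalk subunit, was the most positive member of the complex at 0.07 ± 0.15 (SE).

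The members also differed between libraries of the same genotype. The highest library in scaled FPKM was WT 2 for 38 members, KO 1 for 26 and WT 1 for 21, and it was KO 2, KO 3 or WT 3 for 1, 3 and 2 members. The lowest was KO 3 for 43 members (47.3%), although KO 3 was the lowest library for 12.5% of all tested genes, and KO 2 for 24 members (26.4%, against 20.2%). Each library was the highest for between 12.99% and 20.8% of all tested genes. WT 1 and WT 2, both high, were high for different members: the log2 ratio of WT 2 to WT 1 in scaled FPKM ran from -1.02 for Sdhaf1, -0.92 for Sdha, -0.78 for Atp5f1b and -0.72 for Atp5f1a to 0.68 for Ndufa3 and Ndufa5, 0.74 for Ndufb1 and 0.86 for Ndufb2.

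**Figure D3:**
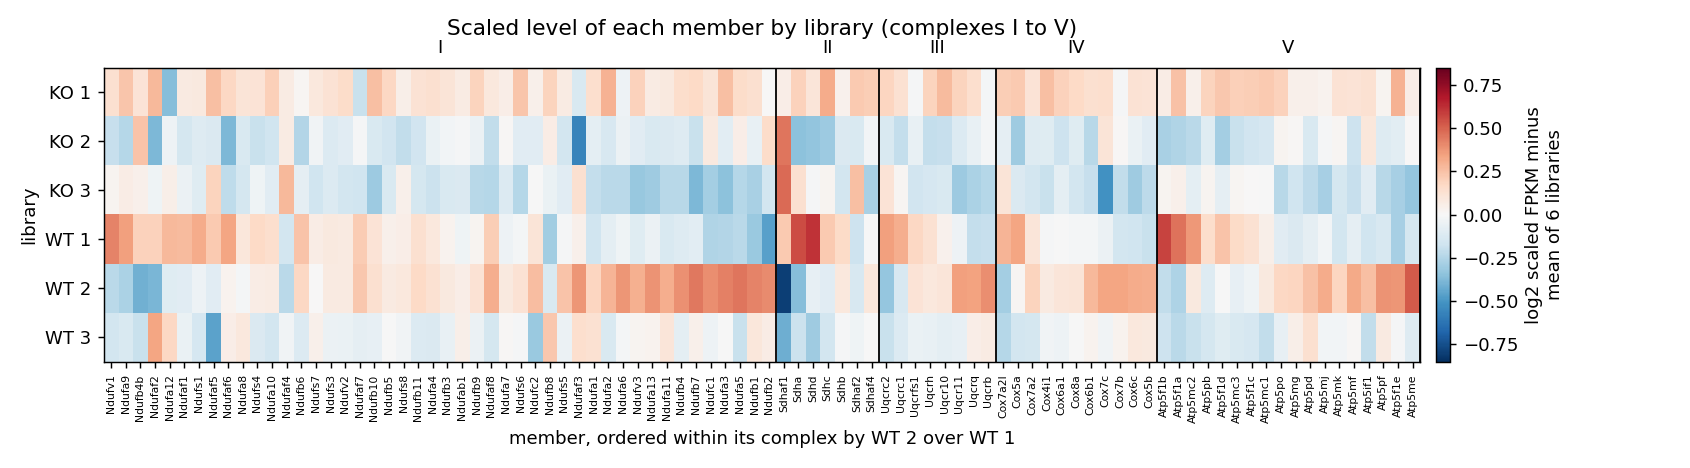
Log2 scaled FPKM of 90 members in each library minus each member's mean over the 6 libraries, with members ordered within complexes I to V by the ratio of WT 2 to WT 1. KO 1 is above the mean for most members, KO 2 and KO 3 are below it for most, and WT 1 and WT 2 are high at opposite ends of complexes I, III, IV and V, while no member of complex II is highest in WT 2.

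Members with long transcripts tended to be higher in WT 1 and those with short transcripts in WT 2. Of the 33 members with a principal transcript under 700 bp, 28 were higher in WT 2 than in WT 1, with a median log2 ratio of 0.29. Of the 29 between 700 and 1400 bp it was 16, with a median of 0.03, and of the 23 of at least 1400 bp it was 7, with a median of -0.32. Over 85 members the log2 ratio had a Pearson r of -0.53 and a Spearman rho of -0.55 with the log2 transcript length, as a description of genes measured in the same pair of libraries. KO 1 over KO 3 gave an r of -0.48 and a rho of -0.47. Over 9199 tested genes, WT 2 over WT 1 had an r of -0.05 with the length used for FPKM, and over the 91 members on that length r was -0.22. The fold change between genotypes had an r of 0.39 and a rho of 0.25 with principal transcript length over the 85 members, with a median of -0.10 in the shortest class, -0.11 in the middle class and -0.04 in the longest. The part of transcript length in the members' differences was not tested further.

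**Figure D4:**
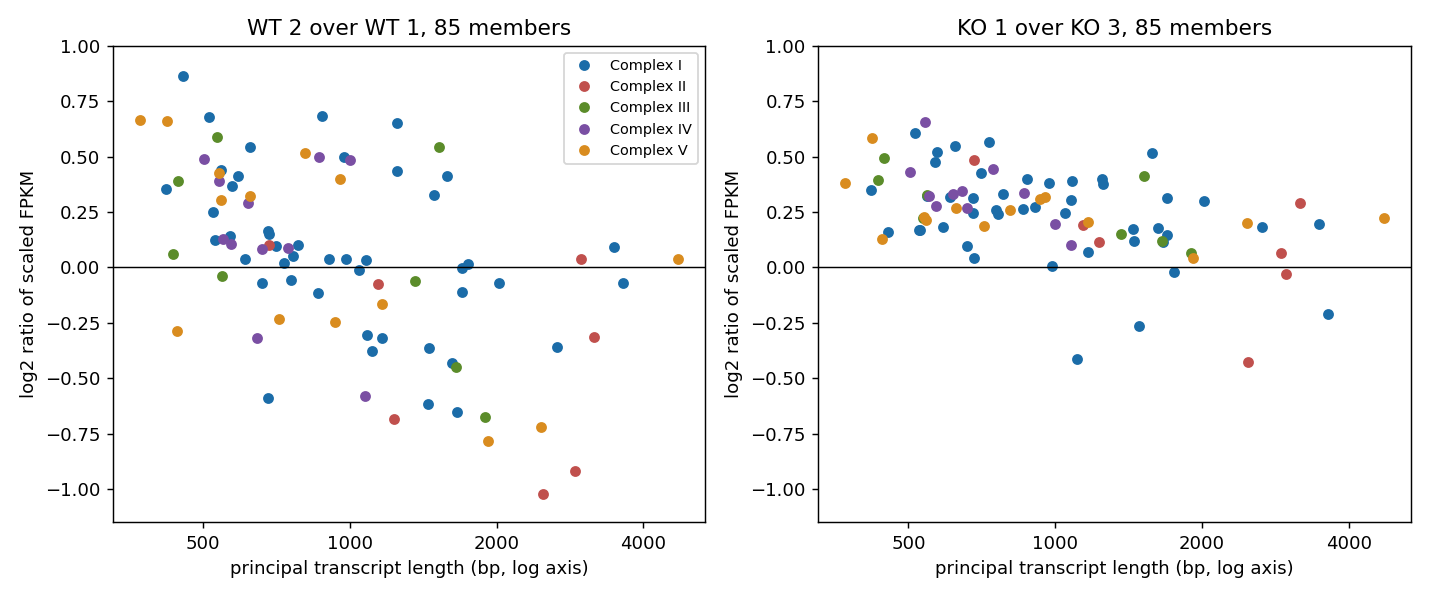
Log2 ratio of scaled FPKM between libraries of the same genotype against principal transcript length (log axis), for WT 2 over WT 1 and KO 1 over KO 3; each point is 1 of 85 members, coloured by complex. Both ratios fall with length, with Pearson r of -0.53 and -0.48.

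The summed level of the 13 subunits encoded in mtDNA was 81053, 128958 and 82645 scaled FPKM in KO 1 to 3 and 75207, 151044 and 122509 in WT 1 to 3, so KO 2, WT 2 and WT 3 were high. The sum over the 91 nuclear members was 5762, 4799 and 4729 in KO and 5502, 5773 and 5040 in WT. The ratio of the sums was therefore 14.1, 26.9 and 17.5 in KO and 13.7, 26.2 and 24.3 in WT, and the groups overlapped. KO 1 and WT 1 had low mtDNA-encoded and high nuclear-encoded levels, KO 2 had the opposite, WT 2 had the highest sum of both and KO 3 was low in both.

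None of the 13 was called between the genotypes, and all 13 fold changes were below 0 with a median of -0.31, against 10 of 13 with quantile normalisation (median -0.18) and 12 with TPM (median -0.22). That median moved with each library left out: it was -0.16, -0.43 and -0.26 without KO 1, 2 and 3, and -0.51, -0.01 and -0.21 without WT 1, 2 and 3. ATP8, a small subunit of the ATP synthase, was the one with an unadjusted p under 0.05 and the one without overlap, at 81.0, 101 and 108 scaled FPKM in KO and 118, 128 and 125 in WT. Its fold change was -0.36 ± 0.15 (SE) and its adjusted p 0.346 with limma. ND6, a complex I subunit and the one encoded on the other mtDNA strand, was at 3718, 5610 and 3534 in KO and 4064, 8321 and 5784 in WT, a fold change of -0.47 ± 0.29 (SE). COX2, a catalytic subunit of complex IV, reached 1781 in WT 3 against 508 to 1135 in the other 5 libraries.

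**Figure D5:**
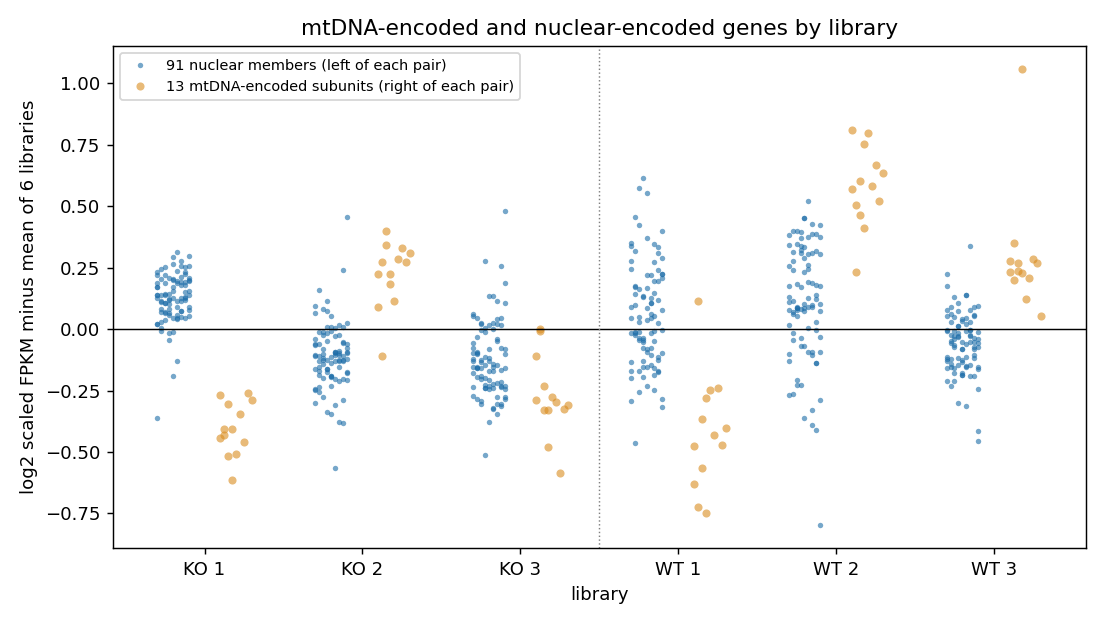
Log2 scaled FPKM of each gene in each library minus its mean over the 6 libraries, for the 91 nuclear members (blue) and the 13 mtDNA-encoded subunits (orange). The mtDNA-encoded subunits are mostly above their mean in KO 2, WT 2 and WT 3 and below it in KO 1, KO 3 and WT 1, with COX2 the highest point in WT 3.

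Other genes of the same pathway gave no call either. Among 9 tested genes that deliver electrons or work beside the complexes, 5 were below 0 with a median of -0.10, which was 0.02 with quantile normalisation. Cyc1, the cytochrome c1 of complex III whose name lies outside the prefixes, had means of 45.7 ± 4.18 in KO and 52.4 ± 9.75 in WT (fold change -0.18), and Cycs, cytochrome c itself, had 61.0 ± 7.05 and 55.9 ± 5.32 (0.12). Among 38 tested assembly factors outside the prefixes, 21 were below 0, the median was -0.01 and 2 had an unadjusted p under 0.05. These were Atpaf2, an assembly factor of the ATP synthase head, with 4.96, 4.79 and 4.48 scaled FPKM in KO and 6.10, 5.78 and 5.82 in WT, and Cox14, a complex IV factor, with 7.97, 7.78 and 7.91 in KO and 6.01, 6.53 and 6.80 in WT. Their fold changes were -0.27 and 0.26, and their adjusted p-values from limma were 0.300 and 0.326. The groups did not overlap for either, as for 3 of the 38 below WT (7.89%) and 2 above (5.26%), beside 9.06% and 10.7% of all tested genes.

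The TCA cycle enzymes, which supply NADH and succinate, had a median of -0.07, with 14 of 19 below 0, and 0.02 with 7 of 19 below 0 with TPM; relative to all genes it was -0.07 in both. Idh2, the mitochondrial NADP-dependent isocitrate dehydrogenase, was at 15.9, 13.8 and 13.6 scaled FPKM in KO and 24.7, 21.4 and 18.2 in WT, a fold change of -0.53 ± 0.14 (SE) with an adjusted p of 0.143. Pdhb, a subunit of pyruvate dehydrogenase, was at 27.1, 39.7 and 26.9 in KO and 46.3, 46.4 and 43.1 in WT, a fold change of -0.54 ± 0.17 (SE) with an adjusted p of 0.193. Neither passed limma's test. Every KO library was below every WT library for 3 of the 19 enzymes (these and Cs, citrate synthase), or 15.8%, beside 9.06% of all tested genes.

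Regulators of mitochondrial gene expression had 14 of 20 tested genes above 0 and a median of 0.08. Mterf4, which works in assembly of the mitochondrial ribosome, had means of 2.22 ± 0.091 in KO and 1.502 ± 0.356 in WT, and Tfb1m, a methyltransferase of mitochondrial ribosomal RNA, had 2.61 ± 0.15 and 1.95 ± 0.20. Their adjusted p-values from limma were 0.240 and 0.263. Every KO library was above every WT library for 3 of the 20, or 15%, beside 10.7% of all tested genes. Ppargc1a, a coactivator of mitochondrial biogenesis, was below the filter at 0.102 ± 0.087 scaled FPKM in KO and 0.194 ± 0.132 in WT. The 25 tested genes of mitochondrial protein import had a median of 0.02, and 12 were below 0. The lowest p in that list was for Timm9, an intermembrane space chaperone, with a fold change of 0.29 and an adjusted p of 0.280. The 79 mitochondrial ribosomal proteins had a median of -0.00, with 40 below 0, and the lowest p was for Mrps6, a protein of the small subunit, at 5.84, 6.00 and 4.24 in KO and 3.42, 3.58 and 2.74 in WT (fold change 0.58 ± 0.15 SE, adjusted p 0.120).

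Markers of other liver cells gave these values beside the members. The 4 tested erythroid markers were all above 0 with a median of 0.35, and their sum over 6 markers ran from 206 to 329 scaled FPKM in KO and from 133 to 314 in WT. Neutrophil markers (7 tested) had a median of 0.08, with sums of 119 to 127 in KO and 111 to 166 in WT. Kupffer cell markers (7 tested) had a median of -0.15 and sinusoidal endothelial markers (6 tested) a median of -0.17, with sums of 41.0 to 64.7 and 21.1 to 28.9 in KO and of 44.4 to 70.5 and 22.5 to 35.7 in WT. Stellate cell markers (3 tested) had a median of -0.02 with sums of 31.9 to 33.4 in KO and 31.0 to 40.5 in WT, and cholangiocyte markers (3 tested) a median of 0.29 with sums of 38.9 to 74.9 and 40.8 to 61.9. The 3 cholangiocyte fold changes ran from -0.53 to 0.35, with 1 below 0. Every KO library was below every WT library for 2 of 7 Kupffer (28.6%) and 1 of 6 endothelial markers (16.7%), beside 9.06% of all tested genes. Every KO library was above for 1 of 3 cholangiocyte markers (33.3%), beside 10.7%. No marker on these lists was called, and their part in the members' values was not tested.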

How the data were processed

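RNA was measured in 6 liver libraries, 3 KO and 3 WT, per the labels. The values are the FPKM deposited by the authors, in 1 table with 0 unused columns of values. The submitters' processing notes name HISAT2 2.0.5 and list hg38 and mm39 as builds, with no role for either; sources used here do not give the counting tool, the strand setting or the annotation. Whole reads were recovered from the steps of the FPKM values (within 0.0001 reads), with the common factor of a gene set from its GENCODE M21 length (1196 rows). FPKM was divided by median-of-ratios factors over 14255 rows above 0 in every library. Rows with at least 1 FPKM in at least 3 libraries (9218) entered a two-sided limma fit (version 3.58.1, R 4.3.3; lmFit and eBayes with trend, 4 residual degrees of freedom) of log2(scaled FPKM + 1), a scale that understates the change of low genes. All 91 members passed this filter. Calls used Benjamini-Hochberg adjusted p under 0.05.

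Genes named were, per complex, the 3 most abundant and the 2 most positive and 2 most negative members, the core complex I subunits, Sdha to Sdhd, the isoform sets, those next to the mean of 1 FPKM and the 2 of lowest p in other lists; others were chosen after their values were seen. The members and lists were chosen with earlier results of these data known. Principal transcripts are those of GENCODE M21 (GRCm38), matched by symbol, and promoters are from RefSeq (GRCm38.p6). The targeted gene and 1 member are not reported by name here; that member stays in the counts and medians and is left out of the figures that label genes. Other settings tried were pseudocounts, filters, scalings, limma options, limma-voom on recovered reads, a replicate block and the removal of single libraries.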

Additional observations from a re-analysis of the deposited data

How the results depend on the processing

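Across 21 other settings, the number of members called was 0 in each except the deposited FPKM without scaling, where it was 12. In that setting the medians of the log2 fold changes were 0.44 for all members, 0.43 for complex I, 0.54 for complex II, 0.44 for complex III, 0.42 for complex IV, 0.47 for complex V and 0.25 for the mtDNA-encoded subunits, and 2703 genes were called; the median of all tested genes was 0.45 there. The number of genes called, 104 with the settings of the report, was 31 without the filter, 64 with a mean of at least 5 FPKM and 436 with limma's arrayWeights; the cause was not tested. Leaving out 1 library gave 21 (without KO 1) to 125 genes (without WT 1), with 76 without KO 2, 56 without KO 3, 58 without WT 2 and 63 without WT 3, and members' medians from -0.16 to -0.03. The complex II median of -0.01 also changed sign with quantile normalisation (0.10), TPM (0.08), TPM over nuclear rows (0.03), arrayWeights (0.11) and without KO 2 (0.16), KO 3 (0.01) or WT 1 (0.13); relative to all genes it was -0.01 with TPM and -0.02 with TPM over nuclear rows. The numbers of KO and WT libraries are not stated to pair them: deviations of same-numbered libraries had correlations of 0.33, 0.47 and 0.02. With the replicate number as a block, 290 genes and 0 members were called, the lowest adjusted p among the members was 0.257, and not every library correlated best with its own number. On the reads recovered (19613 of 19613 rows), limma-voom called 137 genes and 0 members. Scaling factors from the tested rows, and TPM over nuclear rows, both chosen after seeing the data, gave 99 and 85 genes and 0 members. Over 43 named members, 785 of the results under other settings kept their direction and their side of the threshold, 11 passed it in the deposited FPKM, and 100 changed sign without being called under either setting. Depth limits the lowest members, which had 25 to 174 reads per library (Ndufb4b and Sdhaf1), and an exact permutation test of 3 against 3 libraries cannot go below 0.1.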
